A study of Mus musculus with 18 samples.

Results

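Cpne8, Gfpt2, Apmap and Trpv1 were 4 of the 17672 genes of a count table from mouse brown adipocytes. They were chosen by their counts with the β-adrenergic agonist isoproterenol (ISO), which raised them in these same libraries, and were found by their symbols. ISO gave more counts of Cpne8 and Gfpt2 in a knockdown of the lipase activator ABHD5 than in rescued cells, and more counts of Apmap in the rescued cells. SR-3420, a ligand of ABHD5, raised Apmap in the rescued cells, and its changes in the other genes did not pass the test. In the knockdown its rise of Apmap fell just short of the threshold, and that call depended on the fit. The difference between the responses of Apmap to SR-3420 in rescued and knockdown cells did not pass. Since the values with ISO chose the genes, those values are given as descriptions without a test, and tests are kept for the contrasts that hold no ISO library.

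The cells were an immortalised mouse brown adipocyte line, differentiated in culture, in which every group carried a stable shRNA against Abhd5 and an shRNA-resistant ABHD5 tagged with mCherry and placed under the control of doxycycline (Dox). Cells not given Dox, whose genotype label is ABHD5 KD, were the knockdown, and cells with Dox at 1 µg/ml, for 24 h in the description of this experiment and 24 to 48 h in the labels, were the rescue, labelled WT. Both were treated for 3 h with the vehicle DMSO, with ISO at 10 nM or with SR-3420 at 20 µM, which made 6 groups of 3 libraries, described as independent experiments. No group had Dox without the construct, so Dox itself and the restored ABHD5 cannot be told apart, and whether the line was 1 clone is not given in the sources used here.

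β-adrenergic receptors of brown fat raise cAMP, which activates protein kinase A, starts transcription of thermogenic genes and sets off lipolysis, the release of fatty acids from stored triglyceride. In resting fat cells ABHD5 is held by perilipin on the lipid droplet, and once freed it activates the lipase ATGL. SR-3420 frees ABHD5 directly and bypasses the receptor. The 4 genes belong to different families. Gfpt2 encodes an isoform of the amidotransferase that opens the hexosamine pathway, which turns fructose 6-phosphate into the sugar donor UDP-N-acetylglucosamine for glycosylation. Cpne8 encodes a copine, a protein of a family that binds phospholipid membranes when calcium rises. Apmap encodes a glycoprotein of the adipocyte plasma membrane with similarity to paraoxonases. Trpv1 encodes the cation channel of sensory neurons that opens to capsaicin and heat.

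The promoter windows of the 3 genes with the largest changes are shown because Cpne8 and Gfpt2 had their highest level with ISO without Dox and Apmap with ISO and Dox. Each runs from 250 bases before to 50 bases after the start that RefSeq gives, was matched once by its whole sequence to mm9 and is printed 5′ to 3′ along the gene, with motif letters in capitals.
Cpne8, chr15:90509770-90510069, minus strand: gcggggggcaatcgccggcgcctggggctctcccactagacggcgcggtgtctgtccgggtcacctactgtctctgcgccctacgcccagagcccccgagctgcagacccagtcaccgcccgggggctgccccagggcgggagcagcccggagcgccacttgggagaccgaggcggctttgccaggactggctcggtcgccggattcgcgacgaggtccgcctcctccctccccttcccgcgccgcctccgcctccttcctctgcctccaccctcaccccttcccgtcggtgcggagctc
Gfpt2, chr11:49607407-49607706, plus strand: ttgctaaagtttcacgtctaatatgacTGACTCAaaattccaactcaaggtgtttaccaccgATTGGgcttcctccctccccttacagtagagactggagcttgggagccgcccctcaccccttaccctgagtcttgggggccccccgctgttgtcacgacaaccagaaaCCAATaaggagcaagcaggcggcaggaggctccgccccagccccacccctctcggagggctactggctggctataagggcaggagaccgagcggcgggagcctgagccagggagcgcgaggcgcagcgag
Apmap, chr2:150434254-150434553, minus strand: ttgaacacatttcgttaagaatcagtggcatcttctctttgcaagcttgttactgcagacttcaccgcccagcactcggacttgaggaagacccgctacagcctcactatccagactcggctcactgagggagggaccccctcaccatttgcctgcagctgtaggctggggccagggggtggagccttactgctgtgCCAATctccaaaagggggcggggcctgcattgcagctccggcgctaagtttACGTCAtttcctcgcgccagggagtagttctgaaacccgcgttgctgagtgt

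In these windows 6 motifs were searched on both strands. They were the cAMP response element TGACGTCA, its core TGACGT, the shorter TGACG that lies within the core, the AP-1 site TGACTCA, the CCAAT box CCAAT and the TATA box TATAAA. Position 1 is the RefSeq start, and bases before it have negative positions. The window of Apmap held the core TGACGT on the opposite strand from -2 to 4, printed as ACGTCA, and a CCAAT box from -53 to -49. The core was present in 7.51% of 32851 RefSeq windows of the same length, and the whole element in 1.79%. The window of Gfpt2 held the AP-1 site from -223 to -217, a motif of 5.2% of windows. It also held CCAAT boxes from -80 to -76 and, on the opposite strand and printed as ATTGG, from -188 to -184. The CCAAT box was present in 37.4% of windows. The window of Cpne8 held none of the 6 sets of letters, and 73.7% of its bases were G or C against 60.7% in Gfpt2 and 56.7% in Apmap. The window of Trpv1, at chr11:73047401-73047700 on the plus strand, held 1 CCAAT box on the opposite strand from -56 to -52. These matches describe the letters only.

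On mm9 the deposited table placed Cpne8 (NM_025815) at chr15:90317912-90509819, Gfpt2 (NM_013529) at chr11:49607657-49652122, Apmap (NM_027977) at chr2:150408817-150434259 and Trpv1 (NM_001001445) at chr11:73047651-73074824. The RefSeq start used for the window of Apmap lay 44 bases upstream of the start in the table. The length over which reads were counted was 184547 bases for Cpne8, 38845 for Gfpt2, 20376 for Apmap and 23586 for Trpv1, against 187788, 38875, 23060 and 23493 bases of each span outside annotated exons. The counted lengths thus lay close to intron lengths. The study's methods, however, name counting over genes, and counts of Abhd5 rose by 3.46 on the log2 scale with Dox from a construct that is not described as holding introns, so whether exon reads were counted was not settled. The gene span of Apmap was overlapped over 2291 bases by a long noncoding RNA, Gm14123, on the other strand, and that of Cpne8 over 483 bases by a pseudogene, Gm6746. Counting by strand is not stated, so reads of these pairs cannot be told apart.

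Libraries held 689910 to 1956565 counts. In the first SR-3420 library with Dox the 10 most counted genes took 35.6% of all counts, against 16.3% to 26.5% in the other 17 libraries. Fold changes of named genes that rest on it are also given without it, except those of the genes most like Apmap. Abhd5, the target of the knockdown, had 47.2, 55.8 and 54.8 CPM (counts per library size, scaled by TMM) in DMSO without Dox and 583, 656 and 484 with Dox. The groups were far apart, 3.46 ± 0.17 on the log2 scale (SE, with an adjusted p by edgeR of 2.44e-14). Without Dox its mean was higher with ISO, at 149 CPM, and with SR-3420, at 75.7 CPM, than in DMSO, at 52.6 CPM. With Dox it was 827 CPM with ISO and 695 CPM with SR-3420. The counts do not separate the construct from the endogenous gene. Of the brown adipocyte markers, 11 of 12 had enough counts to be tested and Dio2 had none in any library, while the macrophage marker list summed to 9.76 to 22.1 CPM over all libraries. All 4 chosen genes passed the filter on low counts that left 10178 genes in the tests.

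Gfpt2 had the largest fold change with ISO of the 4 genes without Dox, and came after Apmap with Dox. In DMSO without Dox its level was 9.79, 8.16 and 11.2 CPM, which were 11, 6 and 11 counts. With ISO it was 267, 189 and 184 CPM, so every ISO library lay far above every DMSO library. The log2 fold change was 4.42 ± 0.22 (SE), a 21.4-fold difference that ranked 6 among the 10178 genes from the highest. With Dox, DMSO gave 13.5, 10.4 and 13.5 CPM and ISO gave 76.7, 79.6 and 80.9 CPM, again with no overlap. The log2 fold change was then 2.63 ± 0.21, or 6.19-fold. All libraries with ISO and Dox lay below all libraries with ISO alone, and the mean rise in CPM with Dox was 32.7% of that without Dox. The difference of the log2 fold changes, with minus without Dox, was -1.79 ± 0.35. In these bulk libraries more cells with the transcript and more transcript per cell cannot be told apart.

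SR-3420 left Gfpt2 near the DMSO level. Without Dox it was 11.6, 12.2 and 11.8 CPM with SR-3420, all just above the DMSO libraries, and the log2 fold change was 0.27 ± 0.31 (edgeR, p 0.414, adjusted p 0.899, 95% interval -0.37 to 0.91). With Dox it was 16.7, 14.9 and 8.99 CPM, which spanned the DMSO values, with a log2 fold change of 0.11 ± 0.29 (p 0.731, adjusted p 0.879, interval -0.49 to 0.70), and -0.082 without the first SR-3420 library (adjusted p 0.932). These intervals hold changes of up to 1.88-fold without Dox and 1.63-fold with Dox, so smaller responses were not detectable at this depth. Dox alone changed Gfpt2 by 0.36 ± 0.32 on the log2 scale in DMSO (adjusted p 0.765) and by 0.20 ± 0.28 in SR-3420 (adjusted p 0.719, and 0.019 without that library). In order of mean level, ISO without Dox (213 ± 46.4 CPM, SD, n = 3) and ISO with Dox (79.0 ± 2.12) were followed by SR-3420 with Dox (13.5 ± 4.04), DMSO with Dox (12.5 ± 1.77), SR-3420 without Dox (11.9 ± 0.30) and DMSO without Dox (9.70 ± 1.50). Among the 4 lowest groups, neighbours in this order overlapped except for the last pair.

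Cpne8 followed the same order of groups at the top, with a smaller loss of its ISO rise. Without Dox its level was 63.2, 63.9 and 53.8 CPM in DMSO and 523, 584 and 525 CPM with ISO. The groups did not overlap, and the log2 fold change was 3.17 ± 0.14, or 9.03-fold. With Dox the level was 58.3, 53.1 and 43.8 CPM in DMSO and 303, 273 and 272 CPM with ISO. The log2 fold change with Dox was 2.42 ± 0.14, or 5.36-fold, and the difference of both was -0.75 ± 0.20. Within ISO, Cpne8 was 0.94 ± 0.12 lower on the log2 scale with Dox, and its mean rise in CPM was 47.8% of that without Dox.

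SR-3420 gave Cpne8 59.2, 56.9 and 47.9 CPM without Dox and 43.9, 46.7 and 47.9 CPM with Dox, and both groups overlapped their DMSO libraries. The log2 fold changes were -0.13 ± 0.16 (p 0.41, edgeR adjusted p 0.897, 95% interval -0.45 to 0.19) and -0.19 ± 0.16 (p 0.253, adjusted p 0.542, interval -0.53 to 0.14), the second being -0.15 without the first SR-3420 library (adjusted p 0.734). The upper bounds of these intervals, 1.14-fold and 1.11-fold, lay far below the fold change with ISO. Dox alone gave -0.19 ± 0.16 in DMSO (adjusted p 0.768) and -0.25 ± 0.16 in SR-3420 (adjusted p 0.331), or -0.21 without that library (adjusted p 0.565). The 4 groups without ISO had means of 60.3, 54.7, 51.7 and 46.2 CPM for DMSO and SR-3420 without Dox and DMSO and SR-3420 with Dox, and each overlapped its neighbour in this order.

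Apmap went the other way with Dox and passed the test with SR-3420, which of the other 3 genes Trpv1 did in a fit without a filter on low counts. Without Dox its level was 71.2, 63.9 and 75.1 CPM in DMSO and 296, 277 and 278 CPM with ISO, a log2 fold change of 2.01 ± 0.16, or 4.02-fold. With Dox it was 56.3, 61.4 and 60.7 CPM in DMSO and 565, 409 and 493 CPM with ISO. That log2 fold change was 3.05 ± 0.15, or 8.26-fold, and the difference of both was 1.04 ± 0.22. Every library with ISO and Dox lay above every library with ISO alone, and the mean rise in CPM with Dox was 201% of that without Dox. Apmap ranked 116 from the highest of all genes with ISO without Dox and 28 with Dox.

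With SR-3420, Apmap was 125, 114 and 87.1 CPM without Dox and 167, 161 and 136 CPM with Dox. All 6 of these libraries lay above the DMSO libraries of their own Dox state. With Dox the log2 fold change was 1.39 ± 0.16, or 2.62-fold (p 1.55e-09, edgeR adjusted p 6.98e-07), and 1.33 without the first SR-3420 library (adjusted p 1.33e-05). In that contrast 6.53% of all genes tested passed in the same direction. Without Dox the log2 fold change was 0.63 ± 0.16, or 1.55-fold (p 4.86e-04, adjusted p 0.0571), just short of the threshold, where 0.698% of genes passed as higher. Its call depended on the fit. It passed with DESeq2 (adjusted p 0.032), without a filter on low counts (0.0186) and with at least 10 counts in every library (0.0456). It missed the threshold with only the groups compared in the fit (0.0555), RLE factors (0.064), limma-voom (0.0949) and library totals (0.326). Of 6 fits that each left out a library, 1 passed, without SR-3420 replicate 3, the lowest library (0.76, adjusted p 0.0242), and the other 5 had adjusted p of 0.17 to 0.349. Same-numbered DMSO and SR-3420 libraries deviated together, and the value passed in a fit with a replicate block (0.64, adjusted p 0.00591). The difference between both SR-3420 responses was 0.76 ± 0.23 (p 0.00252, adjusted p 0.124), so it did not pass where 0.540% of all genes passed as higher, although the 95% interval ran from 0.29 to 1.22, and it was 0.70 without the first SR-3420 library with Dox (adjusted p 0.255). With the replicate block the difference passed (0.77, adjusted p 0.021). Each SR-3420 contrast shares its DMSO libraries with the ISO contrast by which the genes were chosen.

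The comparison of SR-3420 libraries with and without Dox shares no library with the ISO contrasts. Apmap was higher with Dox there by 0.50 ± 0.15 on the log2 scale, or 1.42-fold (p 0.00185, edgeR adjusted p 0.0224), where 7.26% of all genes passed as higher. All libraries with SR-3420 and Dox lay above those without Dox, which held for 15.4% of all genes. The call was lost without SR-3420 replicate 3 without Dox (0.38, adjusted p 0.14), and without replicate 1 (0.45, adjusted p 0.0997) or replicate 2 with Dox (0.49, adjusted p 0.066). It was also lost with library totals in place of TMM (0.28, adjusted p 0.297). In DMSO the direction was the opposite, with all libraries with Dox below those without, as for 6.98% of all genes, at -0.25 ± 0.17 (p 0.159, adjusted p 0.67). Apmap had means of 489 ± 78.3 CPM (SD, n = 3) in ISO with Dox, 284 ± 10.8 in ISO without Dox, 155 ± 16.5 in SR-3420 with Dox, 109 ± 19.4 in SR-3420 without Dox, 70.1 ± 5.65 in DMSO without Dox and 59.5 ± 2.75 in DMSO with Dox. The libraries of neighbouring groups in this order did not overlap at any step.

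Trpv1 had the smallest and most variable rise of the 4 genes. Without Dox its level was 20.5, 29.9 and 30.4 CPM in DMSO and 33.5, 103 and 91.6 CPM with ISO, so the first ISO library lay just above DMSO and the other two far above. The log2 fold change was 1.54 ± 0.32, or 2.90-fold. It ranged from 1.29 to 1.87 over fits that each left out a library, and was highest without that ISO library. With Dox, DMSO gave 14.0, 30.2 and 13.5 CPM and ISO gave 29.2, 48.8 and 40.4 CPM. These groups overlapped, because the second DMSO library lay above the first ISO library. The log2 fold change with Dox was 1.11 ± 0.35, or 2.16-fold. Over fits that each left out a library it ranged from 0.84 to 1.51, and was highest without that DMSO library. Trpv1 ranked 227 from the highest with ISO without Dox and 543 with Dox, which is a modest place beside Gfpt2 and Cpne8. The difference between both responses was -0.43 ± 0.49, and no order of the Dox states can be read from it.

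With SR-3420, Trpv1 was 50.5, 55.2 and 36.1 CPM without Dox, all above the DMSO libraries, and 27.2, 38.8 and 20.0 CPM with Dox, which overlapped them. The log2 fold changes were 0.85 ± 0.33 (p 0.0155, edgeR adjusted p 0.381, 95% interval 0.17 to 1.52) and 0.64 ± 0.38 (p 0.0979, adjusted p 0.328, interval -0.13 to 1.42), the second being 0.68 without the first SR-3420 library (adjusted p 0.406). Without a filter on low counts the value without Dox passed (0.88, adjusted p 0.0186). Within SR-3420, Dox gave Trpv1 -0.74 ± 0.32 (p 0.0275, adjusted p 0.139) and -0.69 without that library (adjusted p 0.272). It passed without the filter (-0.77, adjusted p 0.0107), with library totals (-0.96, adjusted p 0.0278) and with only the groups compared in the fit (-0.75, adjusted p 0.0419). The replicate block also gave a pass (-0.75, adjusted p 0.0233). Its 6 groups overlapped their neighbours throughout in order of mean level, from 76.1 CPM in ISO without Dox over 47.3, 39.5, 28.7 and 26.9 CPM to 19.2 CPM in DMSO with Dox.

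**Figure D1:**
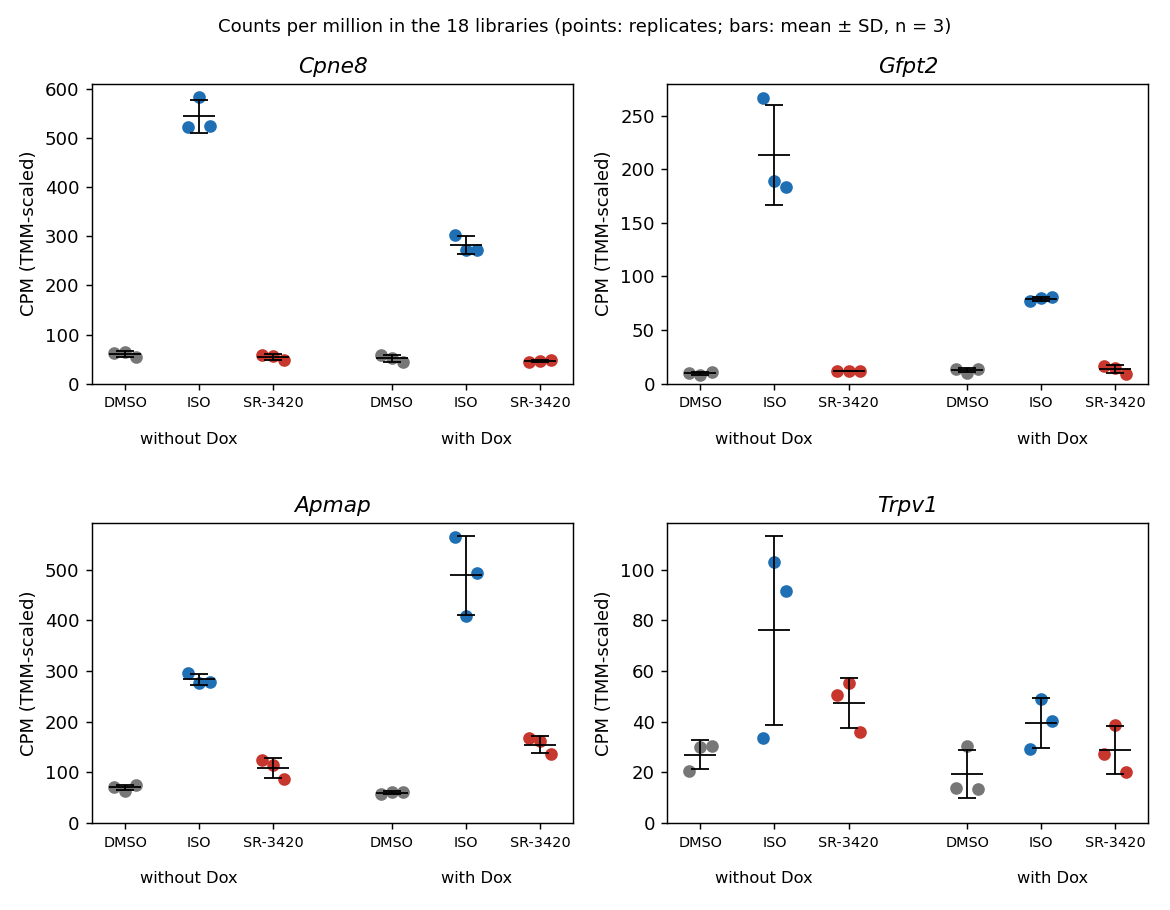
CPM on TMM-scaled library sizes (y axis, a separate scale for each gene, from 0) of Cpne8, Gfpt2, Apmap and Trpv1 in the 6 groups, with points for libraries and bars for the mean and SD of 3. Cpne8 and Gfpt2 peak in ISO without Dox at 523 to 584 and 184 to 267 CPM, and Apmap peaks in ISO with Dox at 409 to 565 CPM. The groups of Trpv1 overlap their neighbours in order of mean level.

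Counted over libraries, the ISO libraries lay above the DMSO libraries for 4 of 4 genes without Dox and for 3 of 4 with Dox. Over all genes tested this held for 20.0% and 21.3%, and nothing is read from the counts of the 4 genes because ISO chose them. The SR-3420 libraries lay above DMSO without overlap for 3 of 4 genes without Dox (Gfpt2, Apmap and Trpv1) against 7.79% of all genes. With Dox they did so for Apmap alone against 13.6% of all genes. Nothing is read from these counts either, because the DMSO libraries also entered the choice of the 4 genes. Within ISO, the libraries with Dox lay below those without for Cpne8 and Gfpt2, above them for Apmap, and on both sides for Trpv1, where 13.6% of all genes lay lower and 14.7% higher. Set directly against SR-3420, ISO was higher for Cpne8 by 3.30 ± 0.13 on the log2 scale without Dox and 2.61 ± 0.14 with Dox. The same differences were 4.15 ± 0.19 and 2.52 ± 0.22 for Gfpt2, 1.38 ± 0.14 and 1.66 ± 0.14 for Apmap, and 0.69 ± 0.27 and 0.46 ± 0.34 for Trpv1. Without the first SR-3420 library the differences with Dox were 2.60 for Cpne8, 2.73 for Gfpt2, 1.74 for Apmap and 0.45 for Trpv1.

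**Figure D2:**
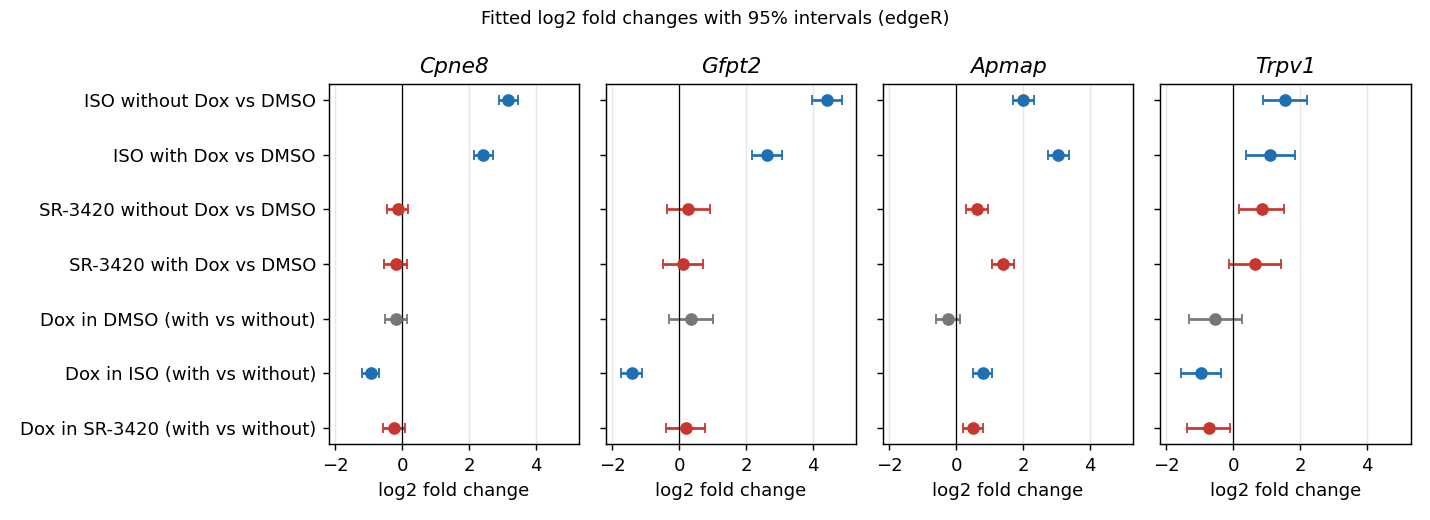
Fitted log2 fold changes (x axis) of the 4 genes in 7 contrasts (rows), with bars for 95% intervals, in blue for contrasts with ISO, red for SR-3420 and grey for Dox in DMSO. With SR-3420 the intervals of Cpne8 and Gfpt2 hold 0 in both Dox states, while Apmap lies at 0.63 without and 1.39 with Dox, and the change with Dox in ISO is negative for Cpne8, Gfpt2 and Trpv1 and positive for Apmap.

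Per kilobase of counted length, Apmap had 3.44 CPM per kb in DMSO without Dox and 24.0 CPM per kb in ISO with Dox. Gfpt2 had 0.25 CPM per kb in DMSO without Dox and 5.49 in ISO without Dox. Cpne8 went from 0.33 to 2.95 CPM per kb and Trpv1 from 1.14 to 3.22 CPM per kb between the same groups. No order of the genes is read from these levels, because it depends on whether exon reads were counted.

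Across the 18 libraries, which share their groups, Cpne8 and Gfpt2 moved together on the log2 CPM scale with Pearson's r of 0.97. Apmap had r of 0.80 with Cpne8 and 0.82 with Gfpt2, and Trpv1 had r of 0.60, 0.57 and 0.53 with Cpne8, Gfpt2 and Apmap. Of all genes tested, the 3 most like Gfpt2 were Uap1 (r 0.99), Nfil3 (0.98) and Sbno2 (0.98). Uap1 encodes the pyrophosphorylase that completes UDP-N-acetylglucosamine at the other end of the pathway that Gfpt2 opens. Its mean level was 145 CPM in DMSO and 2384 CPM in ISO without Dox, and 1009 CPM in ISO with Dox. Nfil3, a bZIP transcription factor of circadian and immune cells, had 45.0 CPM in DMSO and 302 CPM in ISO without Dox, and 150.1 CPM in ISO with Dox. The 3 most like Cpne8 were Acvr1b (0.98), an activin receptor, Uap1 (0.98) and Pde10a (0.98), a phosphodiesterase that degrades cyclic nucleotides. Pde10a had 374 CPM in ISO without Dox and 281 CPM with Dox.

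The genes most like Apmap were others, namely 3110043O21Rik (r 0.98), Ppp2r4 (0.98), which encodes an activator of the phosphatase PP2A, and Dysf (0.97), which encodes the membrane repair protein dysferlin. All of these had a higher mean with Dox than without in ISO, as Ppp2r4 with 879.9 against 539 CPM and Dysf with 220.0 against 143 CPM. For 3110043O21Rik the log2 fold change with SR-3420 was 0.35 without and 1.20 with Dox, beside 0.63 and 1.39 for Apmap. It was 0.48 and 0.79 for Ppp2r4 and -0.02 and 0.76 for Dysf. For the genes other than Apmap, the values with Dox are not given without the first SR-3420 library. The best match of Trpv1 was Tcf20 at r 0.87, followed by Ssbp1 and Abcc5 at 0.77. These correlations describe 18 libraries in 6 groups, and genes were searched for the highest values.

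**Figure D3:**
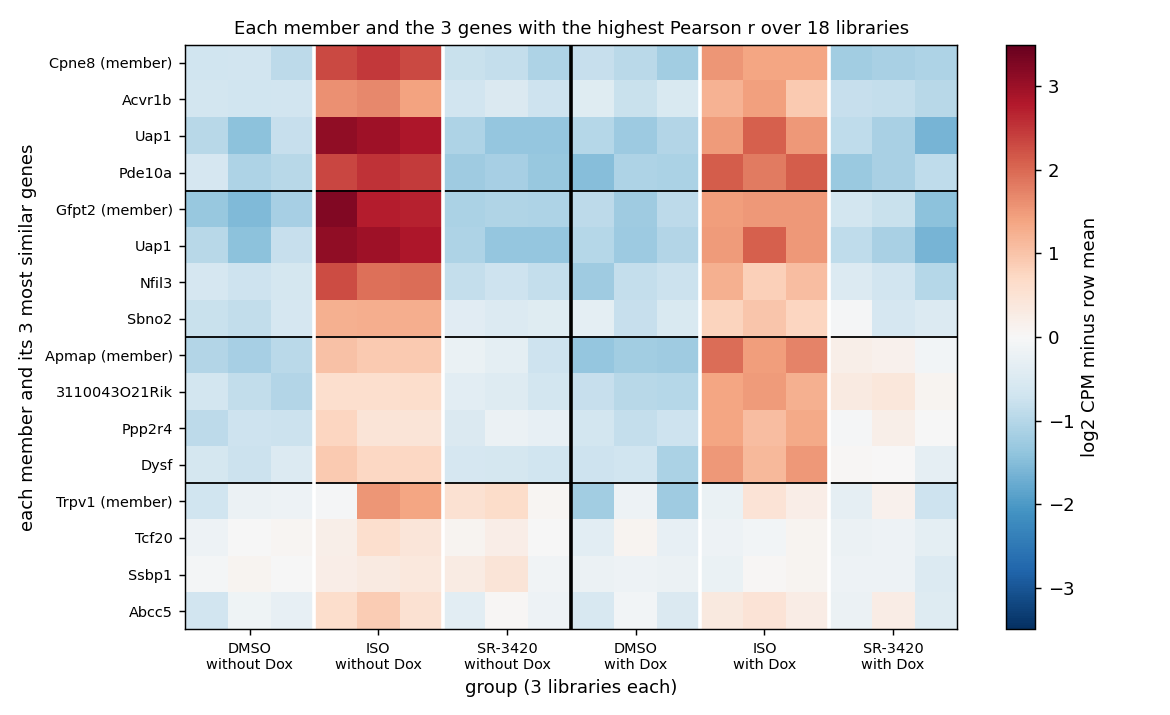
Log2 CPM minus the mean of each row (colour) in the 18 libraries (columns, 3 in each group) for each of the 4 genes and the 3 genes with the highest Pearson's r to it (rows). The blocks of Cpne8 and Gfpt2 are darkest red in ISO without Dox, the block of Apmap in ISO with Dox, and the block of Trpv1, whose best r was 0.87, is pale.

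In the hexosamine pathway, Uap1 had changes of the size of those of Gfpt2. Of 15 other pathway genes tested, Uap1 rose with ISO without Dox by 4.02 ± 0.20 on the log2 scale (edgeR adjusted p 4.11e-15), while Ogt (-0.60 ± 0.19, adjusted p 0.02), the transferase that puts the sugar on proteins, and the deaminase Gnpda1 (-0.99 ± 0.35, adjusted p 0.0367) fell. In that contrast 14.5% of all genes tested rose and 13.5% fell. The median of the 15 was -0.14, beside -0.01 for all genes. With Dox, Uap1 rose by 2.84 ± 0.19 (adjusted p 2.19e-12), and Gne (-0.73), Nans (-0.74) and Nagk (-0.67), enzymes of sialic acid synthesis and sugar salvage, fell with adjusted p of 0.0126, 0.0268 and 0.0413, where 16.4% of all genes rose and 16.1% fell. The rise of Uap1 was smaller with Dox by 1.18 ± 0.26 (adjusted p 0.0115 for the difference of -1.18), where 0.570% of all genes had a smaller and 1.61% a larger value with Dox. Uap1 is described above as the gene with the highest r to Gfpt2, so this value is no independent evidence on Gfpt2. Gfpt1, the other isoform of the amidotransferase, changed by 0.11 ± 0.23 with ISO without Dox (adjusted p 0.759). With SR-3420 and Dox, Uap1l1 rose by 1.08 ± 0.32 (adjusted p 0.0249), a call lost without the first SR-3420 library (0.98, adjusted p 0.119), and Uap1 gave -0.08 ± 0.20 (-0.26 without that library).

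Of 27 genes of N-glycosylation tested, which use the product of this pathway, 5 rose and 3 fell with ISO without Dox, and 5 rose and 4 fell with Dox. These counts were near or under the shares of all genes, of which 14.5% rose and 13.5% fell without Dox and 16.4% and 16.1% with Dox. The mannosidase Man2a1 rose in both states (1.26 and 1.42, adjusted p 1.21e-06 and 8.52e-08) and Mgat1, which adds the first branch sugar, fell in both (-0.66 and -0.82, adjusted p 0.00183 and 1.12e-04). The list's medians were 0.01 and -0.01.

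Of the 4 other copines tested, 1 passed with ISO, in the contrast with Dox, where 16.1% of all genes fell. Cpne2 fell there by 0.92 ± 0.23 on the log2 scale (edgeR adjusted p 0.00276), and it was at -0.63 ± 0.24 without Dox (adjusted p 0.0533). Cpne1 (-0.44 and -0.46), Cpne3 (-0.28 and -0.21) and Cpne4 (0.02 and 0.77) did not pass in either state. Cpne5, Cpne7 and Cpne9 had at most 8 counts in any library and Cpne6 had none.

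Apmap shares its fold with the paraoxonases, of which 2 were tested. Of all genes, 14.5% rose and 13.5% fell with ISO without Dox, and 16.4% and 16.1% with Dox. Pon2 fell with ISO by 0.69 ± 0.17 without Dox (edgeR adjusted p 0.00354) and by 0.45 ± 0.16 with Dox (adjusted p 0.0373). The second value missed the threshold in 5 of 6 fits that each left out a library with Dox, with adjusted p of up to 0.185. Of those 6 fits, it passed only without the second DMSO library. It also missed the threshold with DESeq2 (adjusted p 0.103), without a filter on low counts (0.0965) and with only the groups compared in the fit (0.0796). Pon3 rose with Dox by 0.41 ± 0.12 (adjusted p 0.0108). That call was lost without the first DMSO library with Dox (adjusted p 0.062) and with library totals (0.27, adjusted p 0.202).

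Of 7 other TRP channel genes tested, Trpm3 (1.32 ± 0.43, edgeR adjusted p 0.0224) and Trpc1 (0.50 ± 0.18, adjusted p 0.0343) rose with ISO without Dox and Trpm4 fell (-1.38 ± 0.21, adjusted p 8.74e-06), where 14.5% of all genes rose and 13.5% fell. The call for Trpm3 was lost without the first or the third DMSO library or the second ISO library and with DESeq2 (adjusted p 0.105). That for Trpc1 was lost without the first or second DMSO or the first or the third ISO library, with DESeq2 (adjusted p 0.0607) and with library totals (0.33, adjusted p 0.255). With Dox, Trpc1 rose (0.83 ± 0.17, adjusted p 3.43e-04), and Trpm4 (-0.70 ± 0.21, adjusted p 0.0128) and Trpm7 (-0.38) fell, where 16.4% of all genes rose and 16.1% fell. The fall of Trpm4 did not pass without the first DMSO library (adjusted p 0.16) or the first ISO library (0.0576). The remaining 16 channel genes of the list had at most 15 counts in any library, among them Trpv2 and Trpv4, and Trpa1 had none. Markers of neurons, where Trpv1 is best known, summed to 33.5 to 67.7 CPM, with Rbfox3 and Scn9a at 3 counts or fewer in every library. Most of that sum was Syt1, a synaptic vesicle protein, with group means of 28.9 to 38.1 CPM.

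**Figure D4:**
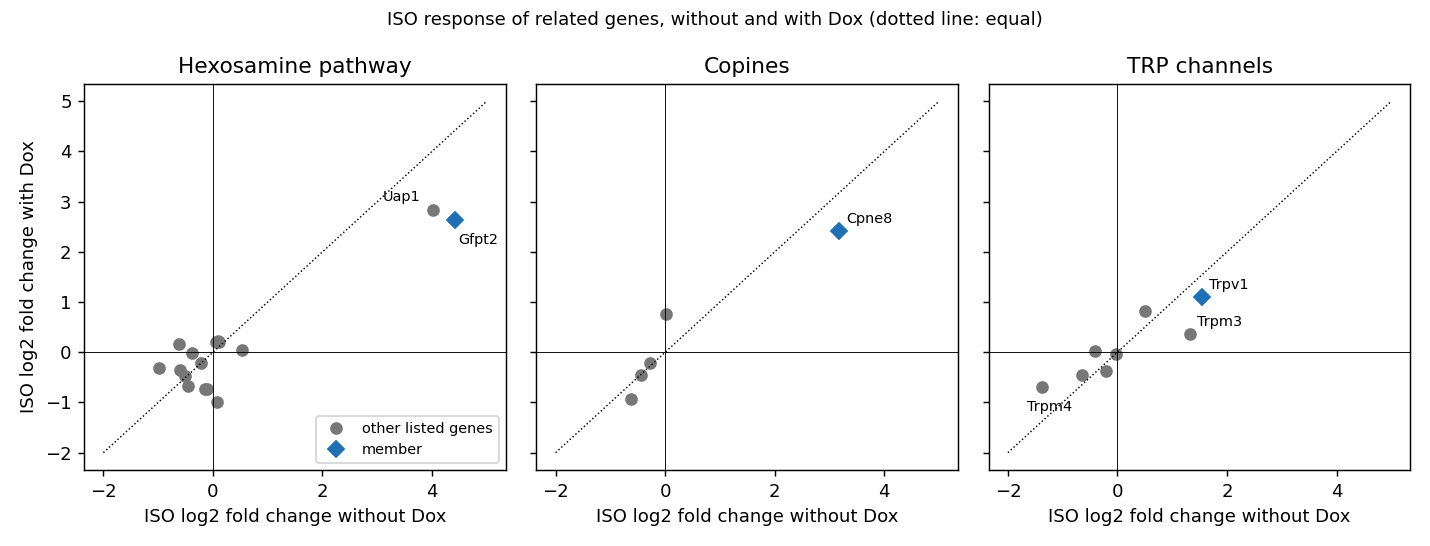
Log2 fold change with ISO without Dox (x axis) and with Dox (y axis) for tested genes of the hexosamine pathway, the copines and the TRP channels, with diamonds for Gfpt2, Cpne8 and Trpv1 and circles for the other genes of each list. Gfpt2 (4.42, 2.63) and Uap1 (4.02, 2.84) stand together below the dotted line of equal change, and Cpne8 (3.17, 2.42) stands alone.

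Lists of genes with known control gave a scale for these responses. Of 15 known cAMP targets tested, 12 rose with ISO without Dox, with a median of 1.99, and 12 rose and Dusp1 fell with Dox, with a median of 1.83. Of all genes, 14.5% rose without Dox and 16.4% with Dox. Gfpt2 without Dox (4.42) lay above Pde10a (3.33) and Vdr (3.66), the vitamin D receptor, and below Nr4a3 (4.59), an orphan nuclear receptor, and Ucp1 (7.27), the uncoupling protein of brown fat. With Dox, Gfpt2 (2.63) lay below all of these, at 3.36 for Pde10a, 3.46 for Vdr, 5.75 for Nr4a3 and 8.11 for Ucp1. With SR-3420 and Dox, 3 of the 15 rose, namely Pck1 (2.78), Ppargc1a (1.14) and Sik1 (1.41), where 6.53% of all genes rose. Without the first SR-3420 library these values were 2.73, 0.67 and 1.47, and Ppargc1a no longer passed (adjusted p 0.249). Of 18 PPAR targets, 4 rose and 2 fell with ISO without Dox, and 11 rose and 1 fell with Dox, where 13.5% and 16.1% of all genes fell. With SR-3420, Fabp4 (1.87) rose without Dox, where 0.698% of all genes rose. With Dox 12 of the 18 rose, among them Pdk4 (2.68) and Plin2 (2.05), beside 1.39 for Apmap. Without the first SR-3420 library 10 of the 18 rose, with 2.53 for Pdk4 and 2.03 for Plin2. Brown adipocyte markers, which share Ucp1, Ppargc1a, Fabp4 and Cidea with the lists above, rose in 4 of 11 cases with ISO without Dox and in 10 of 11 with Dox, against the same 14.5% and 16.4% of all genes.

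The summed level of the 12 brown adipocyte markers also differed between groups, in another order than Apmap. It ranged from 1780 to 2012 CPM in DMSO and from 2436 to 2769.9 CPM in SR-3420 without Dox, from 2225 to 2315 CPM in DMSO with Dox, where Apmap was lowest, and from 3157 to 3827 CPM in SR-3420 and 3926 to 4802 CPM in ISO with Dox. The first SR-3420 library with Dox had 3703 CPM, within the range of its group. The part of this in the values of Apmap was not tested. In ISO without Dox, where Gfpt2 and Cpne8 peaked, the markers summed to 2027 to 2507 CPM. Preadipocyte markers summed to 509 to 782 CPM with ISO and to 679 to 1177 CPM in the other groups, and of 5 tested 1 rose and 1 fell with ISO without Dox and 2 fell with Dox, beside 14.5% and 13.5% of all genes that rose and fell without Dox and 16.1% that fell with Dox. Ly6a, a surface antigen of progenitor cells, rose without Dox by 3.29 ± 0.54 on the log2 scale (edgeR adjusted p 3.53e-05), from a mean of 2.47 CPM in DMSO to 25.1 CPM in ISO, and gave 0.97 with Dox (adjusted p 0.0677). Pdgfrb fell in both states (-1.20 and -0.78, edgeR adjusted p 1.59e-06 and 1.81e-04). Endothelial markers summed to 18.3 to 26.8 CPM with ISO and to at most 16.2 CPM elsewhere. Of these, Tek was the 1 gene tested (1.25 and 1.13 with ISO, adjusted p 0.016 and 0.0181), and Cdh5 and Kdr had at most 1 count in any library. Of the neuron markers, Calca rose with ISO and Dox (2.87, adjusted p 2.55e-04).

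Genes near the 4 on the chromosome were compared next. Cpne8 had no other gene of the table within 100000 bases, and none of the 4 around Apmap had enough counts to be tested. Next to Gfpt2, Mapk9 lay 8130 bases away and changed by 0.28 ± 0.16 with ISO without Dox (edgeR adjusted p 0.22) and by -0.22 ± 0.17 with Dox (adjusted p 0.35). Mapk9 was lower with Dox than without in ISO (-0.65 ± 0.17, adjusted p 0.00752) and in SR-3420 (-0.57 ± 0.17, adjusted p 0.0246), where 4.82% and 4.28% of all genes were lower. The second call was lost without the first SR-3420 library with Dox (-0.56, adjusted p 0.0776). Cnot6 gave 0.42 ± 0.19 (adjusted p 0.109) and 0.14 ± 0.19 (adjusted p 0.606). Around Trpv1, 7 of 10 neighbours were tested. Its paralog Trpv3, 6297 bases away, gave -0.65 ± 0.42 and -0.46 ± 0.34 (adjusted p 0.27 and 0.322), and the ATP receptor gene P2rx5 fell in both states (-1.38 and -1.10, adjusted p 0.0252 and 0.0327), as did 13.5% and 16.1% of all genes. Aspa, the aspartoacylase gene, rose with SR-3420 and Dox by 1.50 ± 0.33 (adjusted p 0.00251), and by 1.43 without the first SR-3420 library (adjusted p 0.0167), beside 6.53% of all genes. It was higher with Dox than without in ISO (1.77 ± 0.46, adjusted p 0.00812) and in SR-3420 (1.20 ± 0.31, adjusted p 0.00901, and 1.14 without that library, adjusted p 0.0458), as were 7.92% and 7.26% of all genes.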

How the data were processed

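RNA-seq libraries of 18 samples (TruSeq, total RNA) were compared. The deposited values were raw counts per gene, not normalized. According to the methods, the authors aligned reads to mm9 with STAR 2.4.2a, kept 1 read per position and length with HOMER and counted genes with iRNA-seq. Keeping 1 read per position limits the counts of highly expressed, short genes. Samples were grouped by their titles, and 0 columns were unmapped.

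The counts of 17672 genes were scaled with TMM (edgeR 4.0.16, R 4.3.3), filtered with filterByExpr and fitted over all 18 samples with 1 mean per group and the quasi-likelihood test, two-sided, with Benjamini-Hochberg adjustment over 10178 genes. Genes passed at an adjusted p of 0.05 or less. The 4 genes gave 20 tests in 5 contrasts. Log2 CPM for correlations had a prior count of 2. The statistic scripts were tested on simulated data. No 2 libraries held identical counts. Promoters came from a RefSeq table on build GRCm38, matched by sequence to mm9, and all 4 genes were found.

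The 4 genes and 12 gene lists were chosen with earlier results of these data known. Named genes were the 4, Abhd5, neighbours within 100000 bases, the 3 most correlated genes of each, cell type markers, and up to 4 genes with the smallest p among those that passed in each list; others named from the lists were chosen after their values were seen. Some listed genes are not reported here.

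Alternatives were DESeq2 1.42.0 and limma-voom (limma 3.58.1), RLE factors, library totals, other filters, a replicate block, the groups compared alone, a fold limit and leaving out each library. Replicate numbers come from the titles, which do not say that they pair libraries. Deviations from the group means of same-numbered DMSO and SR-3420 libraries correlated at 0.137 to 0.263 without Dox and at 0.123 to 0.246 with Dox.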

Additional observations from a re-analysis of the deposited data

Results flagged for a closer look

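The response to ISO differed between cells with and without Dox, by a test of the difference itself (edgeR, with minus without Dox on the log2 scale), for 6 of the genes named or listed. It was smaller with Dox for Uap1 (-1.18 ± 0.26 SE, adjusted p 0.0115) and for Abhd5 (-0.98 ± 0.23, adjusted p 0.0194). The difference for Abhd5 did not pass with library totals (adjusted p 0.09) or without the first DMSO (0.082) or first ISO library without Dox (0.0725) or the second DMSO library with Dox (0.052). The response was larger with Dox for the PPAR targets Pdk4 (1.76 ± 0.36, adjusted p 0.00616), Acadl (0.96 ± 0.23, adjusted p 0.0228) and Fabp4 (1.92 ± 0.47, adjusted p 0.0251), and for the adipokine gene Adipoq (0.85 ± 0.23, adjusted p 0.0447), as it was for Apmap without a test (1.04 ± 0.22). The call for Uap1 held in all 12 fits that each left out a library. Over those fits 2 to 11 listed genes passed, so some calls for the PPAR targets and Adipoq were lost in such fits. Of all genes tested, 1.61% passed as larger and 0.570% as smaller with Dox. The response to SR-3420 was larger with Dox for Pdk4 (1.98 ± 0.36, adjusted p 0.00639, and 1.83 without the first SR-3420 library with Dox, adjusted p 0.0204), where 0.540% of all genes passed as higher. No formal test for outlying libraries was applied to these groups of 3.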

How the results depend on the processing

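With library totals in place of TMM, which moved the median of all genes by up to -0.22 on the log2 scale, ISO gave 3.00 for Cpne8 and 1.84 for Apmap without Dox and 2.49 for Gfpt2 with Dox, and the small changes of Gfpt2 turned negative with SR-3420 and Dox (-0.10) and with Dox in SR-3420 (-0.042). Apmap with Dox in SR-3420 fell short (0.28) and Trpv1 passed (-0.96). For SR-3420 without Dox, Apmap passed without a filter (0.67), with at least 10 counts in every library (0.63) and with DESeq2 (0.63), and Trpv1 without a filter (0.88). For Dox in SR-3420, Trpv1 passed without a filter (-0.77) and with the compared groups alone (-0.75).

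The replicate numbers are not stated to pair libraries. Deviations of same-numbered libraries correlated above 0.1 in 36 of 45 pairs (0.0386 to 0.277), in 3 of 3 for DMSO against SR-3420 in each Dox state, but in 14 of 18 over these 4 groups, and 18 of 18 libraries correlated best with their own number, a hint from the data only. With the replicate block Apmap passed for SR-3420 without Dox (0.64) and for the SR-3420 by Dox difference (0.77), as did Trpv1 for Dox in SR-3420 (-0.75). Genes passing rose with the block from 78 to 238 and from 1008 to 1568 for SR-3420 without and with Dox, from 120 to 271 and from 1175 to 1834 for Dox in DMSO and SR-3420, from 77 to 339 and from 222 to 600 for the SR-3420 and ISO by Dox differences, and to 18 listed genes for the latter.

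Without a filter these counts were 157 (SR-3420 without Dox), 191 (Dox in DMSO), and 156 and 358 (the differences), with 14 listed genes. With library totals they were 36, 42 and 130 for SR-3420 without Dox and the differences, and with at least 10 counts 62 for Dox in DMSO. A fold limit left 27 and 316 for SR-3420, 346 for Dox in SR-3420, 1108 and 1334 for ISO, with 29 listed genes with Dox, and 133 with 3 listed genes for the ISO by Dox difference.

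Leaving out 1 library gave ranges of 0.52 to 0.76 for Apmap with SR-3420 without Dox, 0.38 to 0.60 for Apmap with Dox in SR-3420 and -0.082 to 0.32 for Gfpt2 with SR-3420 and Dox. The SR-3420 by Dox difference ranged from -0.16 to 0.055 for Cpne8, -0.35 to 0.054 for Gfpt2 and -0.47 to 0.20 for Trpv1. Counts of genes ranged from 28 to 53 and from 639 to 847 for SR-3420 without and with Dox, 77 to 143 and 757 to 933 for Dox in DMSO and SR-3420, 28 to 68 for the SR-3420 by Dox difference, and 111 to 301, with 2 to 11 listed genes, for the ISO by Dox difference. The causes were not tested. The other values of the 4 genes kept their direction and their side of the threshold under these alternatives. Depth limits Gfpt2 outside ISO (6 to 28 counts a library), while Trpv1, with 859 counts over 18 libraries, varied between replicates by 31 to 122 counts in ISO without Dox.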
